A study of Mus musculus with 3 samples.

Results

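The genes of the cytosolic translation initiation factors eIF1 to eIF6 and of the elongation factors eEF1 and eEF2, with their regulators, were followed in total RNA-seq libraries of mouse cells labelled T-helper 1. The members are the autosomal protein-coding genes whose symbols begin with Eif and a digit from 1 to 6, or with Eef and 1 or 2, leaving out pseudogenes. They numbered 64 of the 50600 genes counted, and of 20620 autosomal protein-coding genes. The 3 libraries form 1 group of primary cells of strain C57BL/6NJ, with no genotype or treatment named. They are numbered as biological replicates, each with its own biosample record but under 1 donor record, and neither age nor sex is given. The labels call the molecule total RNA, yet the library protocol they link is named for poly(A) RNA; the linked differentiation protocol is named for CD4 T cells. A tag of 16 hr stands in the file headers and is not explained in the labels. There is no second condition, so the comparisons are between genes of the same library, with the spread over the 3 libraries as their error; that spread may be partly technical.

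Translation begins when the small ribosomal subunit, loaded with the initiator tRNA by eIF2 and held open for scanning by eIF1, eIF1A and eIF3, is brought to the capped mRNA by eIF4F. That complex joins the cap-binding protein eIF4E, the helicase eIF4A and the scaffold eIF4G. eIF5 and eIF5B complete the joining of the subunits, after which eEF1A delivers aminoacyl-tRNA and eEF2 moves the ribosome along. T cells raise their protein synthesis strongly when they are activated, and the main switches are the phosphorylation of eIF2, which blocks its recycling by eIF2B, and the 4E-BP proteins, which sequester eIF4E.

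The deposited gene counts summed to 2568928 to 4764598 per library, and the members held 125369, 58093 and 47758 of them in replicates 1, 2 and 3. Levels are given as TPM, computed from the counts and the deposited exon lengths, where 1 TPM stood for 1.28 to 2.25 counts per kilobase. Of the T cell markers, 9 of 9 reached 1 TPM in every library, among them Cd3e with 392, 191 and 157 counts and Cd4 with 2208, 984 and 787. Cd3e is not clear in the sense given below, and the other 8 T cell markers are. The Th1 regulator Tbx21 had 2, 10 and 2 counts and the Th1 cytokine Ifng had 1, 0 and 0. Of other Th1 genes, Cxcr3 had 0, 0 and 1 counts, whereas Il12rb2, which is not clear in the sense given below, had 123, 75 and 91 and Stat4 had 64, 11 and 22. The T cell part of the label was thus met by its markers, and the Th1 genes were mixed. Markers of other cells reached 1 TPM in every library for 0 of 5 B cell, 2 of 5 macrophage, 0 of 4 neutrophil, 1 of 5 NK and CD8, 0 of 4 dendritic and 1 of 4 stromal genes. Summed over each list they ranged from 0 to 8.53 TPM per library for B cells, 113 to 140 for macrophages, 0 for neutrophils, 0.296 to 1.11 for dendritic cells, 7.93 to 29.2 for NK and CD8 cells and 2.23 to 4.72 for stromal cells. Lyz2, Itgam, Adgre1, Ncr1, Cd8a and Col1a1 were at 0 counts throughout, whereas Cd8b1 had 97, 15 and 36 counts, Pecam1 54, 26 and 19 and Cd68 10, 2 and 6. The macrophage sum was mostly Csf1r, which is not clear in the sense given next. The Y-linked Eif2s3y had 133, 0 and 68 counts, so replicate 2 differed from the others in a Y-linked gene under the shared donor record. Their part in the levels below was not tested.

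Counting by strand bears on every level. The file headers give the strand setting 1, and genes whose exons meet exons of the other strand held 56.1% to 71.6% of the counts. The mitochondrial gene mt-Nd6, which is transcribed from the strand opposite to most mitochondrial genes, exceeded mt-Co1 in counts per kilobase by factors of 6.40, 10.3 and 24.5 in replicates 1 to 3. Whether reads were counted on the strand opposite to their RNA was not tested. If they were, the levels below describe a remainder of the reads. Where genes of opposite strands overlap, the count of 1 could then hold RNA of the other. A gene is called clear here when no exon of it lies within the body of a gene of the other strand, and values are also given in TPM over clear genes alone. That scale is larger, since clear genes held 17.9% to 31.1% of all TPM. By this measure 45 of the 64 members were clear, against 72.1% of autosomal coding genes.

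Nearly the whole translation factor set was expressed, and most of it at high levels. Of the 64 members, 57 reached 1 TPM in every library, against 40.8% of autosomal coding genes. Under 1 TPM in every library were 2 members, Eef1a2 and Eif4e1b, against 50% of coding genes. The other 5, Eif4e3, Eif4ebp3, Eif5a2, Eef1akmt3 and Eef2k, reached that level in at least 1 library but not in all. Among the highest 10% of coding genes by mean TPM stood 43 of 64 members. The median mean log2(TPM + 1) was 6.31 over members and 0.50 over autosomal coding genes. Over clear genes the median mean level was 367 TPM of that scale for 45 members and 0.340 for 14859 coding genes.

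Together the members made up 1.73%, 1.39% and 0.898% of all TPM in replicates 1, 2 and 3, a mean of 1.34% ± 0.418 (SD, n = 3). In TPM over clear genes the clear members held 4.73%, 4.09% and 4.03%, a mean of 4.29% ± 0.387 (SD, n = 3). The drop in replicate 3 was smaller on the second scale. Eef1a1 alone held 30.9%, 28.6% and 28.9% of the members' TPM. Eef1a1, Eef2 and Eif5a together held 44.6% of the members' mean TPM, and the 10 highest members held 65.3%. The bulk libraries do not show whether a level reflects the number of cells or the RNA in each cell.

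**Figure D1:**
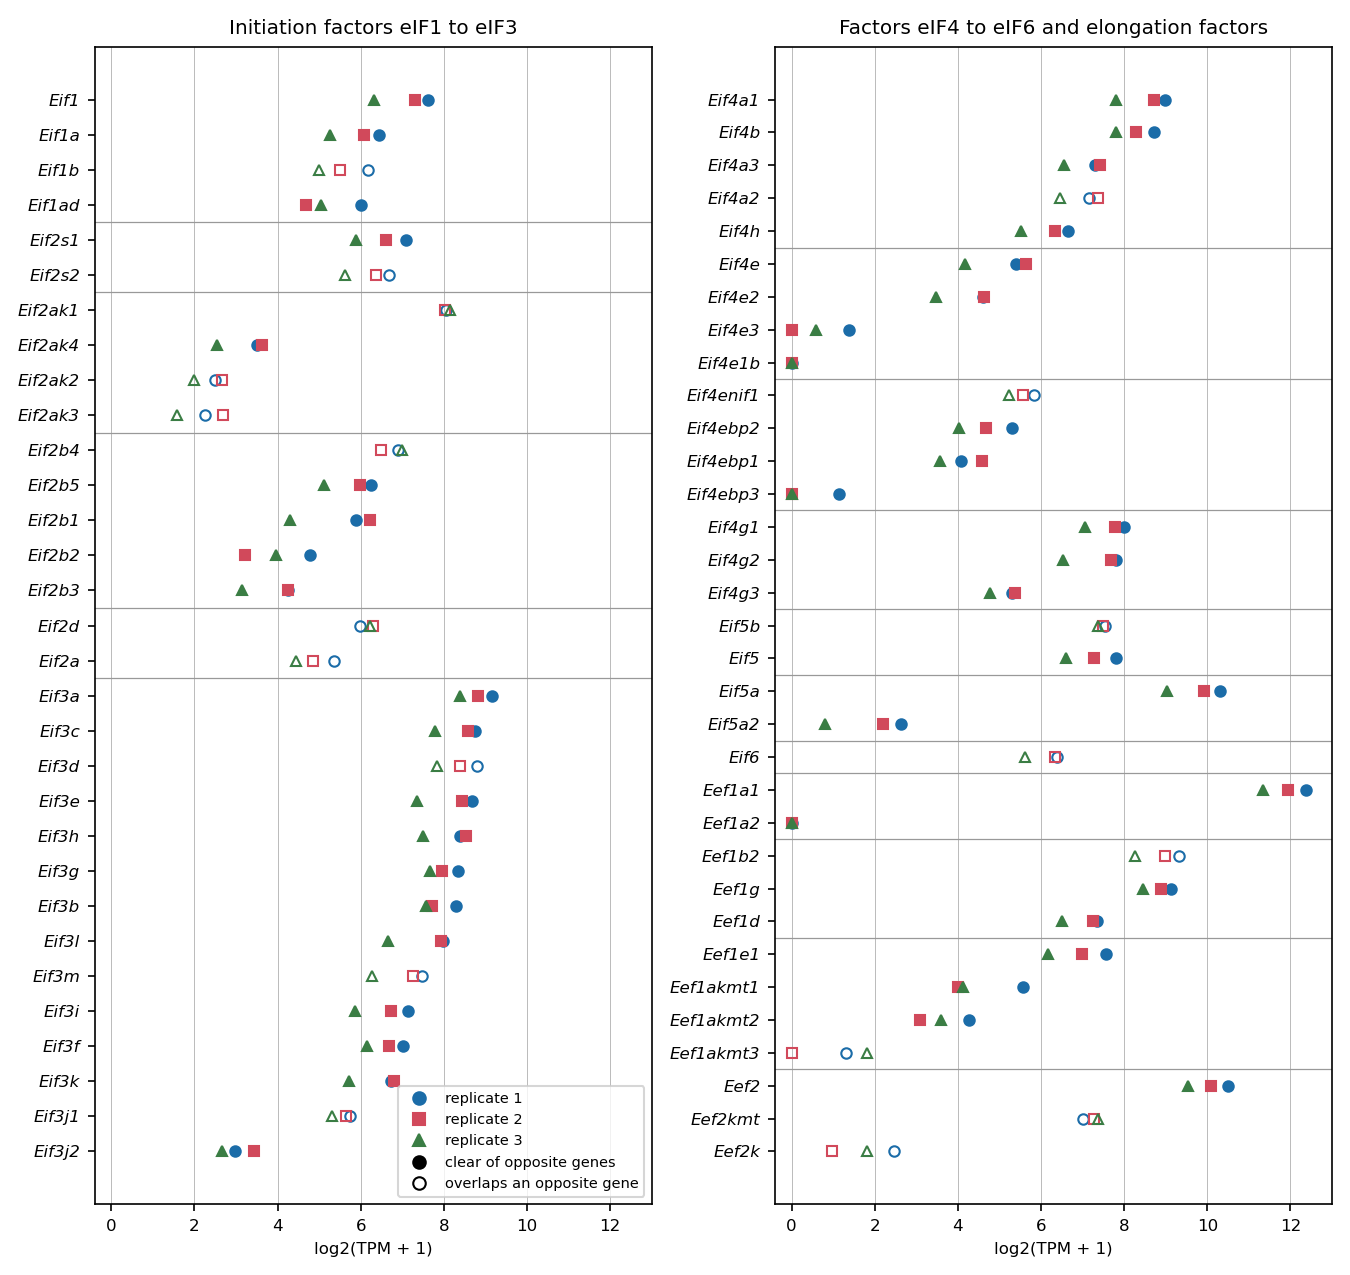
Level of each of the 64 members as log2(TPM + 1) in replicates 1, 2 and 3, grouped by factor and ordered by mean TPM within a factor. Filled symbols are clear members and open symbols overlap a gene of the other strand; Eef1a1 stands highest, and Eef1a2 and Eif4e1b lie at 0 in all 3 libraries.

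The highest members were the elongation factor genes Eef1a1 and Eef2. Eef1a1, which encodes the GTPase that carries aminoacyl-tRNA to the ribosome, had 30034, 12581 and 10281 counts and 5343, 3956 and 2594 TPM in replicates 1, 2 and 3. With a mean of 3964 TPM ± 1375 (SD, n = 3) it ranked number 3 among autosomal coding genes. Eef1a2, the paralogue used mainly in muscle and neurons, was at 0 counts throughout; a count of 0 leaves room for up to 0.638, 1.13 and 0.905 TPM in replicates 1, 2 and 3. Against that floor of 3 counts per library, Eef1a1 was at least 8369-fold, 3506-fold and 2865-fold higher than Eef1a2. Both genes are clear, on chromosome 9 from 78478449 to 78489151 for Eef1a1 and on chromosome 2 from 181147653 to 181157014 for Eef1a2 (mm10). Eef1a1 has many processed pseudogene copies in the mouse genome, so reads that map to several places could be missing from its count.

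The 100 bases before the annotated starts of this pair are shown because the pair gives the widest contrast in the set. Both are on the minus strand of GRCm38.p6, from RefSeq.
Eef1a1, chr9:78481725-78481824: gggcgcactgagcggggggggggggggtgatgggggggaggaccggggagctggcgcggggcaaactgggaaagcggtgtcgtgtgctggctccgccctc
Eef1a2, chr2:181157016-181157115: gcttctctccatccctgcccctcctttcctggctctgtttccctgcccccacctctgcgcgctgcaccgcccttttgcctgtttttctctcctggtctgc
Neither stretch holds any of the motifs searched below, so no base is in capitals.

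eEF1B, the exchange factor that reloads eEF1A with GTP, has 3 subunit genes here. Eef1b2 had 642, 502 and 304 TPM, Eef1g had 558, 471 and 349, and Eef1d had 162, 150 and 89.6 in replicates 1, 2 and 3. Eef1b2 and Eef1g overlapped in their ranges, while Eef1d lay below both in every library. The ratio of Eef1b2 to Eef1d was 3.56 ± 0.340 (SD, n = 3). Eef1b2 meets exons of Ndufs1 on the other strand by 9 bases, and the ratio of the clear pair Eef1g to Eef1d was 3.49 ± 0.385. In TPM over clear genes Eef1d varied least of the clear members at 1 TPM or more, with 522, 531 and 499.

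Eef2, the translocase, had 1439, 1090 and 738 TPM, a mean of 1089 ± 350 (SD, n = 3), and is clear. Eef2k, the kinase that inactivates eEF2 by phosphorylation, had 75, 9 and 30 counts, or 4.49, 0.952 and 2.55 TPM. Eef2kmt, which methylates eEF2, had 128, 153 and 165 TPM and was the only gene of this group that was highest in replicate 3. Neither Eef2k nor Eef2kmt is clear.

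The methyltransferases of eEF1A were lower. Eef1akmt1 had 46.2, 15.0 and 16.6 TPM, Eef1akmt2 had 18.4, 7.55 and 11.1, and Eef1akmt3 had 9, 0 and 11 counts. Eef1e1, a scaffold of the multi-tRNA synthetase complex that is named as an elongation factor subunit, had 188, 125 and 71.3 TPM.

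eIF5A, the hypusine-bearing factor that helps ribosomes past proline stretches, was next after Eef1a1 and Eef2 through its gene Eif5a. Eif5a had 1256, 966 and 524 TPM, a mean of 915 ± 369 (SD, n = 3), and Eif5a2 had 59, 23 and 6 counts, or 5.21, 3.59 and 0.751 TPM. The ratio of Eif5a to Eif5a2 was 241, 269 and 698 in replicates 1, 2 and 3. Pooled over libraries it was 280 (exact 95% counting interval 227 to 349); such intervals cover counting error only. Of the enzymes that make hypusine, Dhps, which is not clear, had 59.8 ± 1.67 TPM and Dohh 11.9 ± 3.98 (SD, n = 3).

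The small factors of start codon recognition reached a mean of 145 TPM, that of Eif1. Eif1, which guards against starts at wrong codons, had 196, 158 and 79.4 TPM, and its paralogue Eif1b had 71.4, 44.6 and 30.7. Eif1 was higher in every library, with a ratio of 2.96 ± 0.508 (SD, n = 3), and Eif1b is not clear. Eif1a had 86.3, 66.4 and 37.4 TPM, and Eif1ad, a related gene, was the lowest of the group by its mean, with 63.8, 24.8 and 31.8; in replicate 3 Eif1b was lower.

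Of the ternary complex, the alpha subunit gene Eif2s1 had 135, 96.3 and 58.4 TPM and the beta subunit gene Eif2s2 had 101, 81.0 and 47.9. The ratio of Eif2s1 to Eif2s2 was 1.25 ± 0.0790 (SD, n = 3), above 1 in 3 of 3 libraries. Eif2s2 lies inside the body of a gene of the other strand that had 0 counts in each library.

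The exchange factor eIF2B has subunits alpha to epsilon, encoded by Eif2b1 to Eif2b5 in that order. Eif2b4 was highest with 118, 88.4 and 127 TPM, Eif2b5, the catalytic subunit, had 75.5, 62.5 and 33.5, and Eif2b1 had 57.7, 74.1 and 18.8. Eif2b2 had 26.4, 8.32 and 14.7 TPM and Eif2b3 had 263, 150 and 82 counts, for a mean of 14.6 TPM ± 5.80 (SD, n = 3). Eif2b4 differed from the other subunits in being highest in replicate 3, and it is the subunit that is not clear. The ratio of Eif2b4 to Eif2b3 was 6.62, 4.90 and 16.03 in replicates 1, 2 and 3. Among the 4 clear subunits the highest and lowest by mean TPM were Eif2b5 and Eif2b3, with a ratio of 3.97 ± 0.439 (SD, n = 3); in replicate 2 Eif2b2 was below Eif2b3.

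Several kinases phosphorylate eIF2 alpha in mammals, and their genes were at very unequal levels. Eif2ak1, the heme-regulated kinase, had 264, 259 and 284 TPM. Eif2ak4, the amino acid sensor GCN2, had 10.4, 11.4 and 4.81, Eif2ak2, the double-stranded RNA sensor PKR, had 4.60, 5.37 and 2.95, and Eif2ak3, the endoplasmic reticulum sensor PERK, had 3.75, 5.46 and 1.98. Eif2ak1 lay above the other kinases in every library, but it overlaps opposite-strand genes, as do Eif2ak2 and Eif2ak3. Eif2ak4 is the clear one, with a mean of 33.4 ± 6.64 in TPM over clear genes (SD, n = 3). Eif2d, which can place initiator tRNA outside the usual route, had 62.7, 77.7 and 73.4 TPM, and Eif2a, an alternative tRNA carrier, had 40.0, 27.7 and 20.9; neither is clear.

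eIF3, the largest initiation factor, showed a graded set of subunits. Among the 12 subunits without the loosely bound j subunit, Eif3a was highest by its mean, with 568, 454 and 331 TPM, and Eif3k lowest, with 105, 110 and 51.5; in replicate 2 Eif3f and Eif3i were below Eif3k. Their ratio was 5.39, 4.14 and 6.43 in replicates 1, 2 and 3. Eif3c (mean 343 TPM ± 109; SD, n = 3), Eif3d (336 ± 110), Eif3e (306 ± 128), Eif3h (294 ± 99.5), Eif3g (258 ± 60.4) and Eif3b (237 ± 66.0) followed Eif3a. From Eif3a down to Eif3b, each gene differed from the next by less than the larger of their SDs. The lower subunits were Eif3l (198 ± 85.0), Eif3m (135 ± 52.8), Eif3i (101 ± 41.3), Eif3f (100.2 ± 29.5) and Eif3k (88.9 ± 32.5).

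The j subunit has a paralogue pair in the mouse. Eif3j1 had 52.6, 48.7 and 38.9 TPM and Eif3j2 had 6.90, 9.89 and 5.29, so Eif3j1 was 7.63, 4.92 and 7.37 times higher in replicates 1, 2 and 3. Eif3j1 is not clear, since its exons meet those of Spg11.

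**Figure D2:**
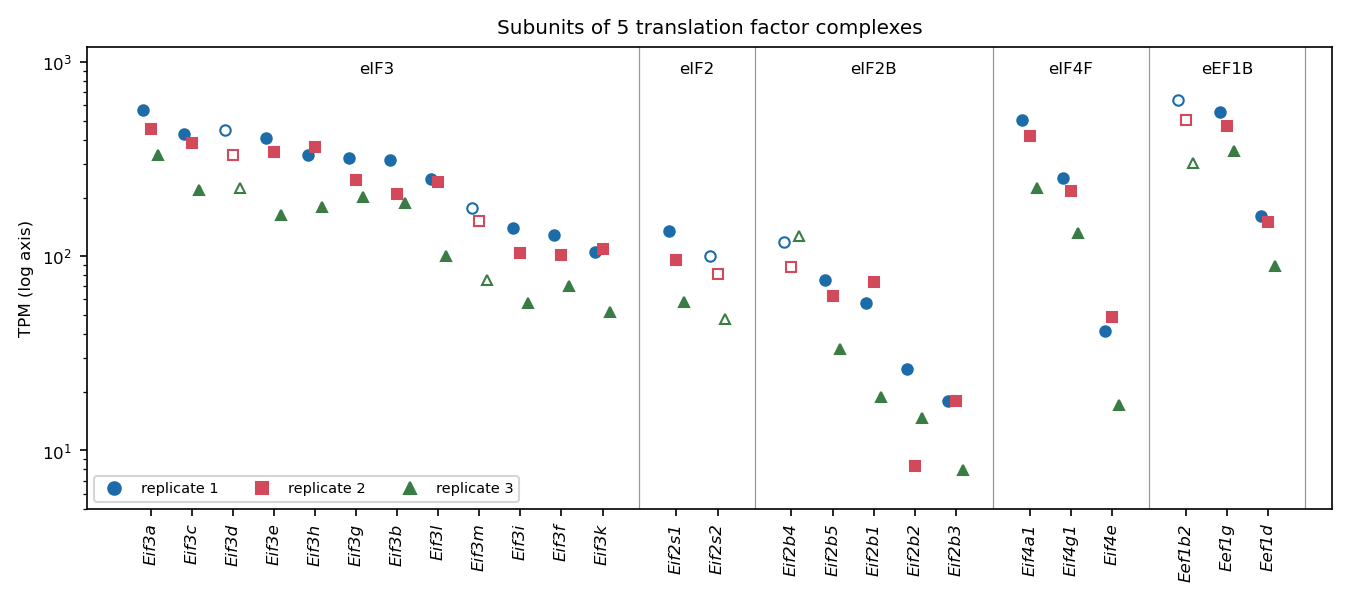
TPM on a log axis of the subunits of eIF3, eIF2, eIF2B, eIF4F and eEF1B in each library, ordered by mean within a complex; open symbols are subunits that are not clear. Most subunits are lowest in replicate 3, whereas Eif2b4 is highest there with 127 TPM.

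In eIF4F the helicase and scaffold genes were well above the cap-binding gene. Eif4a1 had 503, 418 and 224 TPM, Eif4g1 had 255, 218 and 133, and Eif4e had 41.3, 48.7 and 17.1. The ratio of Eif4a1 to Eif4e was 12.2, 8.59 and 13.1, and all of these genes are clear. Eif4b and Eif4h, which stimulate the helicase, were at unlike levels. Eif4b had 318 ± 97.3 TPM (SD, n = 3), and Eif4h, the lowest of the helicase group, had 99.1, 79.7 and 45.1.

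The helicase paralogues did not share the level of Eif4a1. Eif4a2 had 141, 165 and 87.5 TPM and Eif4a3, a core protein of the exon junction complex, had 157, 170 and 92.2. Eif4a1 was 2.88 ± 0.582 times higher than Eif4a2 and 2.70 ± 0.438 times higher than Eif4a3 (SD, n = 3). Eif4a2 is the host of several snoRNAs and overlaps exons of Rfc4 on the other strand. Exons of Eif4a2 share up to 178 bases with a snoRNA gene of the same strand, Snora81. Those of Eif4a1 share 143 and 144 bases with the snoRNA genes Gm24029 and Gm22988. Reads that meet both genes of such a pair are not counted, and their part in these ratios was not tested.

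The cap-binding family was low apart from its main gene. Eif4e2, a homologue linked to translational repression, had 23.2, 23.7 and 10.1 TPM, and Eif4e was 1.84 ± 0.186 times higher (SD, n = 3). Eif4e3 had 9, 0 and 2 counts, and the pooled ratio of Eif4e to Eif4e3 was 41.7 (exact 95% counting interval 23.2 to 83.7.) Eif4e3 lies within the body of the coding gene Gm20696 on the same strand and shares 373 of its 2515 exon bases with it, so reads that meet both genes are not in its count. Eif4e1b, an oocyte form, had 0 counts in each library, which allows up to 0.590, 1.04 and 0.837 TPM.

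Among the scaffolds, Eif4g2, which lacks the eIF4E-binding part and serves cap-independent initiation, was close to Eif4g1. Eif4g2 had 221, 205 and 90.9 TPM, and the ratio of Eif4g1 to Eif4g2 was 1.15, 1.06 and 1.46. Eif4g3 had 38.2, 40.7 and 26.2 TPM, and Eif4g1 was 5.69 ± 0.842 times higher (SD, n = 3).

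The repressors of eIF4E were led by Eif4enif1, the transporter that takes eIF4E to the nucleus and to P-bodies, with 55.6, 46.5 and 36.4 TPM; it lies within the body of Drg1 on the other strand and is not clear, while the 4E-BP genes are. Eif4ebp1 had 79, 64 and 38 counts, or 16.6 TPM ± 6.00 (SD, n = 3), and Eif4ebp2 had 38.5, 24.4 and 15.3 TPM. Eif4ebp1 was the lower of this pair in each library, with a ratio to Eif4ebp2 of 0.414, 0.936 and 0.710, and in replicate 2 the genes were nearly equal. Eif4ebp3 had 2, 0 and 0 counts. The pooled ratio of Eif4ebp2 to Eif4ebp3 was 52.9 (exact 95% counting interval 14.6 to 438.) Of the 744 exon bases of Eif4ebp3, 501 are shared with Ankhd1 on the same strand, and the counting options in the file headers do not count reads that meet more than 1 gene.

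Of the late factors, Eif5, which activates the GTPase of eIF2, had 223, 154 and 95.6 TPM and Eif5b, the subunit-joining GTPase, had 186, 179 and 165. Eif6, which keeps the large subunit from joining too early, had 82.9, 80.1 and 48.0 TPM. The levels of Eif5b stayed within a narrow band where those of Eif5 spread widely, and Eif5b is not clear.

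Each of the 12 paralogue pairs kept its order in 3 of 3 libraries. Eif4a2, Eif3j1 and Eif1b are not clear, so their pairs could not be compared in TPM over clear genes. The differences of log2(TPM + 1) ran from 7.87 ± 0.31 for Eif5a over Eif5a2 to 0.28 ± 0.24 for Eif4g1 over Eif4g2 and -0.59 ± 0.58 for Eif4ebp1 over Eif4ebp2, with Eef1a1 over Eef1a2 given above as a bound. The mean difference of Eif4ebp1 and Eif4ebp2 was about as large as its SD, and without replicate 1 it was -0.27. That of Eif4g1 and Eif4g2 was 0.15 without replicate 3. The exact two-sided sign-flip permutation test over libraries gave p = 0.25 for each pair, and 0.25 after Benjamini-Hochberg adjustment over the 12. That is the smallest p that 3 libraries can give, so no pair could pass a threshold of 0.05.

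**Figure D3:**
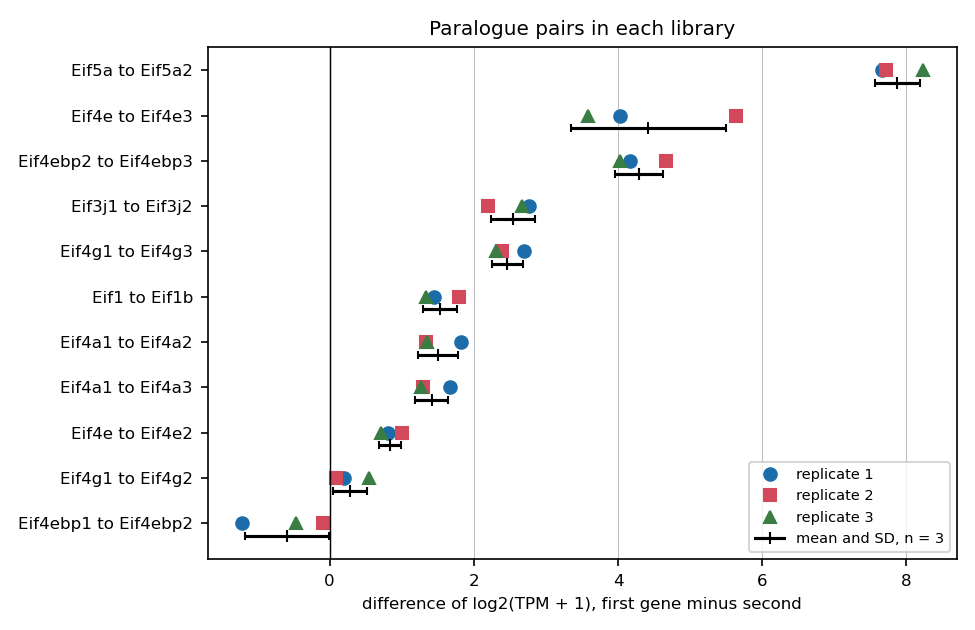
Difference of log2(TPM + 1) between the genes of 11 paralogue pairs, first gene minus second, in each library, with the mean and SD (n = 3) in black. Of the pairs, 10 lie above 0 in every library, while Eif4ebp1 minus Eif4ebp2 lies below it.

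Exons of 17 members, against 22.9% of autosomal coding genes, met exons of the other strand, and for 16 of them a single partner shared at least 50 bases. These 16 members formed 18 pairs, 11 with a coding partner and 7 with a noncoding one. The orders given for these pairs are orders of assigned counts, not of RNA. Should the count of a gene hold RNA of its partner, the order of their RNAs could be the reverse. Which gene of a pair the reads came from was not tested. In counts per kilobase the member was higher than its coding partner in every library in 8 pairs and lower in 1. The noncoding partner was the higher gene in every library in 4 pairs and the lower one in 3. Of the pairs with a noncoding partner, the one with the most counts was Eif3d, with 1925, 812 and 688, and the antisense gene Gm17638. The latter had 18152, 9506 and 15352 counts. Their exons share 625 bases, and per kilobase Eif3d stood at 0.241, 0.194 and 0.102 of Gm17638.

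Eif5b shares 1643 exon bases with Rev1, a translesion polymerase gene, tail to tail. Eif5b had 4085, 2230 and 2559 counts, against 281, 161 and 185 for Rev1. Eif2ak1 lies tail to tail with Aimp2, a scaffold of tRNA synthetases, over 487 exon bases, and it also holds Ankrd61 on the other strand, with 172 shared bases. Eif2ak1 had 3374, 1875 and 2563 counts, against 332, 197 and 189 for Aimp2 and 988, 564 and 875 for Ankrd61. Eef2kmt shares 472 bases with Alg1, a glycosylation enzyme gene, and had 762, 518 and 696 counts against 507, 278 and 375. A further 143 bases of Eef2kmt meet the antisense gene Gm15983, which had 171, 93 and 139 counts.

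Eif3j1 had 692, 362 and 361 counts over a tail-to-tail overlap of 1107 bases with Spg11, which had 392, 282 and 272. Eif2b4 had 694, 293 and 524, head to head with the sorting gene Snx17 over 204 bases, which had 347, 81 and 209. Eif4a2 had 1702, 1124 and 743 against 243, 188 and 69 for the replication gene Rfc4, with 194 shared bases. Eif2d had 1042, 731 and 861 against 475, 221 and 213 for Rassf5, with 78 shared bases. In these pairs the member had more assigned counts per kilobase than its partner in each library.

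The order was mixed for Eif2a and Eif3m. Eif2a had 552, 216 and 203 counts and shares 72 bases with Serp1, which had 343, 187 and 103. Eif3m had 1038, 501 and 313 and shares 82 bases with Ccdc73, which spans it and had 844, 889 and 566. Eef1akmt3 was the coding-pair member that stayed below its partner, with 9, 0 and 11 counts against 325, 172 and 121 for the tRNA methyltransferase gene Mettl1, over 100 shared bases.

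Of the low members, Eif2ak3, Eef2k and Eif2ak2 each faced a noncoding gene with more counts per kilobase in every library. Eif2ak3 had 51, 42 and 19 counts against 195, 86 and 168 for Gm43292, with 485 shared bases. Eef2k had 75, 9 and 30 against 126, 50 and 96 for Gm15774, with 101 shared bases, and Eif2ak2 had 53, 35 and 24 against 48, 26 and 41 for Gm26637, with 174. Eif1b and Eif6 had more counts per kilobase than their noncoding partners in every library. Eif1b had 181, 64 and 55 counts against 12, 0 and 17 for D830035M03Rik, with 143 shared bases, and Eif6 had 505, 276 and 206 against 0 in each library for Gm16098, with 138. Since each deposited count covers a whole gene, the share of a member's counts that falls in the overlap could not be read from the tables.

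**Figure D4:**
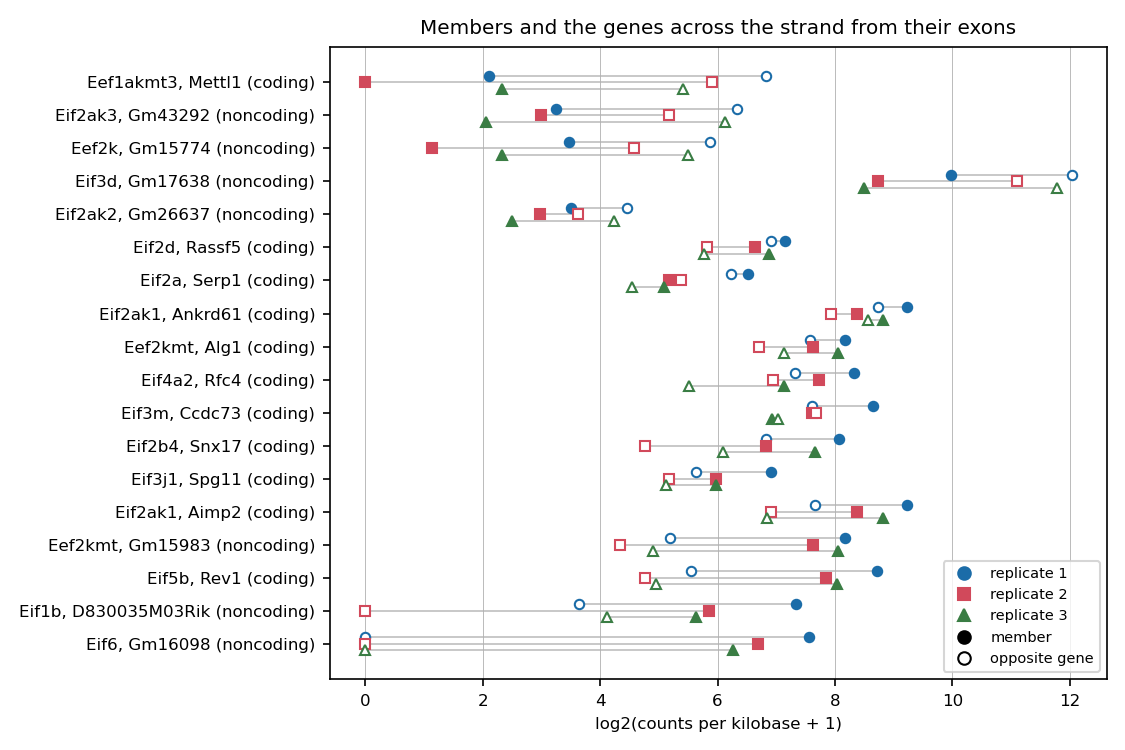
Counts per kilobase, as log2(value + 1), of each member (filled) and of the gene across the strand from its exons (open) in each library, for the 18 pairs with at least 50 shared exon bases. Gm17638 lies above Eif3d in all 3 libraries, while Rev1 lies below Eif5b.

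Most members were lowest in replicate 3. Of 60 members with a mean of at least 1 TPM, 50 had their lowest TPM there, against 67.3% of autosomal coding genes. Among clear members the count was 37 of 41, against 74.6%, and among those not clear 13 of 19, against 55.2%. The TPM of clear members in replicate 3 was a median 0.462 of that in replicate 1 and was below it for all 41. For members that are not clear the median was 0.619, and Eif2d, Eif2b4, Eif2ak1, Eef1akmt3 and Eef2kmt had ratios above 1. In TPM over clear genes the median ratio of the clear members was 0.801, with 25 of 41 lowest in replicate 3, against 40.5% of clear coding genes. The share of TPM held by clear genes moved the same way, with 31.1%, 28.3% and 17.9% in replicates 1, 2 and 3. TPM over clear genes is TPM divided by that share. The step between the medians 0.462 and 0.801 is therefore the change in that share, by definition. Why the share differed between libraries was not tested.

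**Figure D5:**
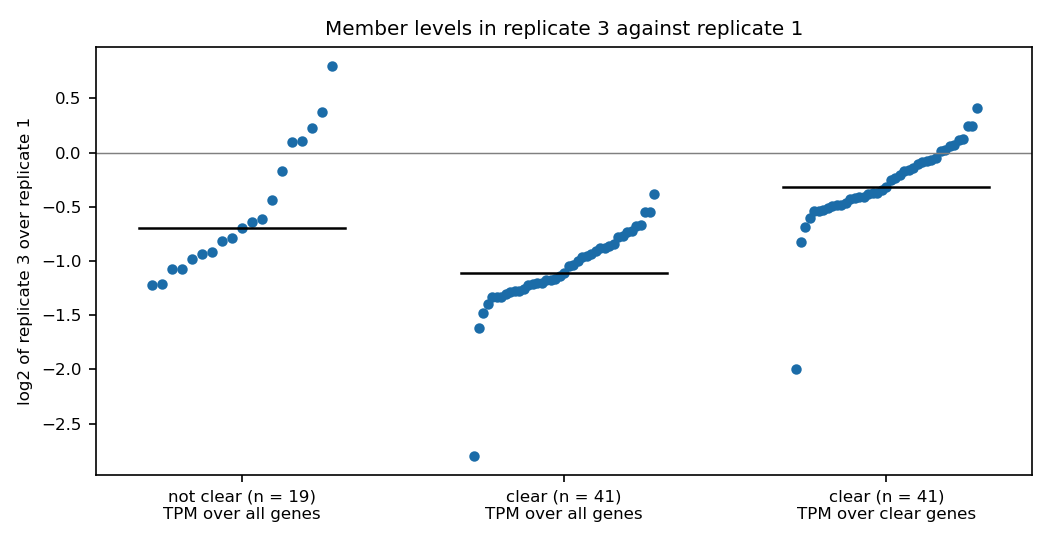
Log2 ratio of the level in replicate 3 to that in replicate 1 for each member with a mean of at least 1 TPM, sorted within a class; black bars are medians. On the scale of all genes every clear member lies below 0, and on the scale of clear genes 9 of 41 lie above it.

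The spread between libraries followed the same line. The median SD of log2(TPM + 1) was 0.56 over 60 members and 0.52 over 9623 autosomal coding genes of at least 1 TPM on average. Over clear genes and their own TPM it was 0.24 for 41 members and 0.36 for 5994 coding genes; the members are more deeply counted than most of these. Only Eif2b1 had an SD above 1, or 1 of 60 members against 7.42% of coding genes. The next largest SDs were those of Eif5a2 (0.95), Eef1akmt3 (0.94), Eef1akmt1 (0.86) and Eif4e (0.78).

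The 5 smallest SDs, 0.07 for Eif2ak1, 0.09 for Eif5b, 0.16 for Eif2d, 0.19 for Eef2kmt and 0.22 for Eif3j1, all belonged to members that are not clear. In TPM over clear genes the steadiest were Eef1d (0.05), Eif4g1 (0.07) and Eif3c (0.09). By edgeR the median biological coefficient of variation was 0.295 over 57 members and 0.308 over 9466 genes fitted. Fitted on clear genes the median was 0.165 over 40 members and 0.258 over 5127 genes. edgeR draws the value of each gene toward a trend over genes. In the first fit the members thus lay close together, from 0.281 for Eif6 to 0.367 for Eif2b2.

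Members with 0 counts in at least 1 library were 5 of 64, Eef1a2, Eif4e1b, Eif4e3, Eif4ebp3 and Eef1akmt3, against 53.8% of autosomal coding genes.

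Beyond the factors themselves, 42 genes of the wider translation machinery and its signalling were followed, and 42 of 42 reached 1 TPM in every library, against 40.8% of autosomal coding genes; the list was drawn up with results of these data known. Of these 24 were clear. The highest were Pabpc1, the poly(A)-binding protein that bridges to eIF4G, with 396, 335 and 182 TPM, Atf4, the transcription factor of the integrated stress response, with 307, 289 and 148, Bzw2, an eIF5 mimic, with 290, 264 and 136, and Etf1, the release factor eRF1, with 246, 225 and 105. All of these are clear. The kinase gene Mtor had 9.13 ± 3.47 TPM (SD, n = 3) and Larp1, which binds mRNAs with terminal oligopyrimidine starts, had 122 ± 33.8.

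RefSeq start windows of 300 bases, 250 before and 50 from the annotated start, matched 48 of the 64 members by symbol, with 63 windows in all. CACGTG, the E-box that MYC and related factors bind and that reads the same on both strands, stood in the windows of 12 of 48 members, against 9.22% of autosomal coding genes with a window. By window it was 14 of 63 against 8.04%. All of the eIF4F genes Eif4a1, Eif4e and Eif4g1 held it, as did Eef2, Eif5a and Eif4h, whose stretches are shown for that reason with the motif in capitals (GRCm38.p6).
Eif4a1, chr11:69672595-69672624, minus strand: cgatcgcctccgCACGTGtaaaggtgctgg
Eif4e, chr3:138527192-138527221, plus strand: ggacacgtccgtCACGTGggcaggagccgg
Eif4g1, chr16:20672661-20672690, plus strand: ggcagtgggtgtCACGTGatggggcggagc
Eif4h, chr5:134639488-134639517, minus strand: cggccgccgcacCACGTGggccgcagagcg
Eef2, chr10:81176576-81176605, plus strand: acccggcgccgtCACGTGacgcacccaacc
Eif5a, chr11:69921443-69921472, minus strand: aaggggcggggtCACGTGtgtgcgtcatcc
The Eif4e stretch is from the window of its downstream start, and the Eif5a stretch from 1 of its 6 windows. The other members with the motif were Eef2k, Eif1b, Eif3a, Eif3f, Eif3k and Eif5a2. A match is a description of letters, not a bound site. The shares over coding genes, here and below, take in genes not expressed in these libraries. Shares over expressed genes alone were not computed.

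CCGGAAG, a motif of ETS factors searched on both strands, was found in the windows of 16 of 48 members, against 13.6% of coding genes. It is shown for Eif3d and Eif2b4, which overlap a gene of the other strand.
Eif3d, chr15:77970877-77970906, minus strand: agctgtgacacaCTTCCGGttgtgtctcac
Eif2b4, chr5:31193120-31193149, minus strand: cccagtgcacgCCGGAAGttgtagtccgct
AAGATGGC, a motif of YY1 searched on both strands, stood in those of 4 of 48 members, Eef1e1, Eif3f, Eif4a1 and Eif4e, against 3.63%. The terminal oligopyrimidine pattern, a C followed by at least 4 pyrimidines at the annotated start, was met by 1 of 48 members, Eif3f, against 2.74% of coding genes. Its stretch is shown with the pyrimidine run in capitals.
Eif3f, chr7:108934405-108934434, plus strand: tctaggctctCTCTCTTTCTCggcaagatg
Annotated starts can differ from the starts used in these cells, which the deposited gene counts do not locate.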

How the data were processed

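Total RNA-seq libraries of 3 samples labelled T-helper 1 were used, with replicate numbers from the labels. Per the file headers, the authors' whole-number counts per gene came from featureCounts v1.4.6-p4, run in paired mode with its strand option at 1 and GENCODE vM13 exons; the build is mm10, per the labels. The headers' command holds no option to count multi-mapping reads; the aligner's version is not given in the sources used here. Gene length in bases was deposited beside each count.

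From these, TPM was computed over all 50600 rows, and again over clear genes. Names came from GENCODE vM21 (50376 identifiers). Exon overlaps came from the tables' coordinates. Log values use a pseudocount of 1. Dispersion used edgeR on the counts with TMM scaling, filterByExpr and an intercept alone. It was tested on counts simulated with the same coefficient of variation for all genes. That test covered the value common to all genes, not the medians over genes given here. The floor for a gene at 0 is 3 counts. Ratio intervals are exact at 95%.

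The members and lists were chosen with earlier results of these data known. Values per library are given for the highest and lowest member of each factor group, paralogue pairs, members with 0 counts, those with 50 or more overlapping bases and the 5 of largest SD, for the 4 highest pathway genes, and for Cd3e, Cd4, Tbx21 and Ifng. Values of other genes were added after they were seen. Alternatives were pseudocounts, thresholds, filters, scalings, DESeq2 dispersion and each replicate left out. The tools were edgeR 4.0.16 and DESeq2 1.42.0 in R 4.3.3, and SciPy 1.17.1, pandas 2.3.3, numpy 2.4.6 and matplotlib 3.10.9 in Python 3.11.15. The count over the Th1 marker list is not reported here.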

Additional observations from a re-analysis of the deposited data

How the results depend on the processing

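The alternatives run could not reverse any of the 12 paralogue pairs. Each pair had the same order in every library, and a pseudocount or rescaling keeps the order within a library. The counts of members detected and of members overlapped stayed within 1.5 times. The detected count, 57 of 64, had little room to rise, and over clear genes it was 41 of the 45 clear members. The members' share of TPM was 2.75% over protein-coding rows and 4.29% over clear genes, and their share of counts 2.20%. Their median log2(TPM + 1) was 8.51 over clear genes. The median SD was 0.301 in log2 CPM with TMM scaling and 0.240 over clear genes. Leaving out 1 replicate at a time gave 0.225 to 0.676, lowest without replicate 3. The members' median coefficient of variation was 0.165 over clear genes and 0.174 by DESeq2, against 0.258 and 0.237 over all genes fitted. Leaving out 1 replicate at a time gave 0.187 to 0.336, again lowest without replicate 3. The pathway genes detected numbered 24 when counted over clear genes, of which there are 24. Except where the setting itself changes the genes or libraries used, the cause was not tested. A ratio over clear subunits could not be had for eIF2, which has 1. No paired analysis between conditions was possible because there is 1 group. Counts per kilobase at 1 TPM, from 1.28 to 2.25, limit the genes with few counts.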

Other observations

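Factor genes outside the autosomes were not members, but they complete the picture of eIF2 and eIF1A. The X-linked gamma subunit gene Eif2s3x had 38.2, 25.9 and 10.7 TPM in replicates 1, 2 and 3 and is clear, below Eif2s1 and Eif2s2 in each library. Its Y-linked copy Eif2s3y had 14.2, 0 and 10.3 TPM. The X-linked Eif1ax had 66.8, 57.0 and 36.2 TPM. Of 7 pseudogene rows named after these factors, 2 held any count: Eif4a-ps4 with 32, 24 and 7 and Eif5al3-ps with 5, 0 and 0.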
